A study of Mus musculus with 2 samples.

Results

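The genes of fibroblast growth factor (FGF) signalling were examined in deposited RNA sequencing data of mouse pituitaries taken at E12.5. They comprise 22 ligands, 6 receptor or co-receptor genes and 13 feedback genes, which are transcribed when the kinase ERK is active and mostly damp the pathway, 41 in all. They were chosen by gene symbol, and 40 of the 41 were matched among the 55401 genes of the deposited tables; Spry3 was not analysed here. The values come from 1 wild-type library and 1 Dyrk2-KO library, the latter from embryos in which the gene of the protein kinase DYRK2 is knocked out, each made from total pituitary RNA. By its title, the study concerns the need for primary cilia when pituitary cells choose a type and when vessels grow. The sources used here give neither the strain, nor how the allele was made, nor how many embryos, of which sex, went into a library.

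FGF ligands bind receptor tyrosine kinases together with heparan sulfate, and the receptors pass the signal through Ras to ERK. ERK activity in turn raises transcription of the ETS factors Etv1, Etv4 and Etv5 and of inhibitors such as Sprouty, Spred and Dusp6 genes, which are widely used as a readout of FGF signalling. In the embryo the infundibulum, the part of the ventral brain that touches Rathke's pouch, secretes FGF8, FGF10 and FGF18, and pouch cells respond mainly through FGFR2. Without FGF10 the pouch forms but does not survive.

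With 1 library per genotype there is no test and no p-value, and no difference has a replicate check. Levels are in FPKM, the fragments of a gene relative to its exon length in kilobases and to all fragments counted in that library. Brackets give 95% intervals, exact Poisson for a level and exact Clopper-Pearson for a ratio, which reflect counting error and leave out any spread among embryos or preparations. Where a pair of values stands without names, the wild-type library comes first. The intervals rest on 20044938 counted fragments in the wild-type and 20115782 in the knockout library. Dyrk2 itself measured 11.52 FPKM (10.9 to 12.1) in the wild-type and 1.93 FPKM (1.70 to 2.19) in the knockout library, 5.97-fold less in the latter. All 10 pouch markers and all 11 infundibulum markers exceeded 1 FPKM in at least 1 library. In bulk RNA, fewer cells of a type and less RNA per cell cannot be told apart.

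Most of the pathway lay at a similar level in both libraries. Of the 40 matched members, 25 reached 1 FPKM in at least 1 library. With 0.5 FPKM added to both values, 1 of the 25 was at least 1.5-fold lower in the knockout library and 0 were at least 1.5-fold higher. Over all 14000 genes that passed the same filter, 4.56% were that much lower and 2.06% that much higher. The median log2 ratio was -0.08 for the 25 members and -0.02 for all genes.

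By counting error alone, the interval of the ratio lay wholly below 1 for 9 of the 25 and wholly above 1 for 7, beside 22.3% and 17.7% of all genes. That count grows with the number of fragments, of which the 25 had a median of 779 in the wild-type library and all genes 681.5. The part of fragment number in these counts was not tested. By role, 8 of 10 ligands above the filter had log2 ratios below 0. These were 5 of 7 secreted ligands and 3 of 3 intracellular FGFs, which are not secreted. Of the receptor genes 3 of 3 had ratios above 0, and the feedback genes divided into 7 above and 5 below. Over all genes, 7512 ratios lay below 0 and 6402 above.

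**Figure D1:**
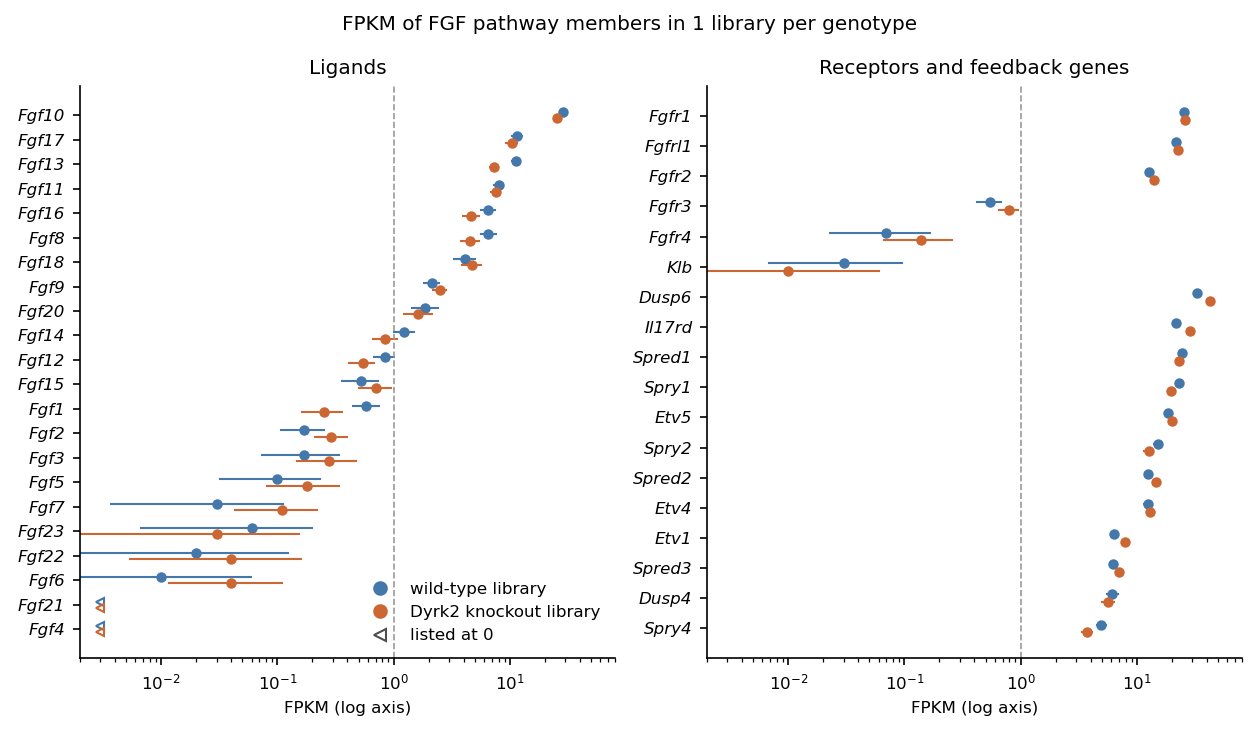
Level of each of the 40 matched members in the wild-type (blue) and Dyrk2 knockout (orange) library, in FPKM on a log axis, with 95% Poisson intervals as lines and open triangles for genes listed at 0. The dashed line marks the filter of 1 FPKM, which 10 ligands, 3 receptor genes and 12 feedback genes passed in at least 1 library.

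Fgf10 was the most abundant secreted ligand. Fgf10 (ENSMUSG00000021732, chromosome 13, 118669791 to 118792115, plus strand), positions in GRCm38, encodes the ligand that keeps pouch cells alive. It measured 28.49 FPKM (27.4 to 29.6) in the wild-type and 25.48 FPKM (24.5 to 26.5) in the knockout library, which is 1.12-fold lower (1.06 to 1.18), and the intervals of the libraries do not overlap. Fgf10 made up 45.4% of the summed FPKM of the 18 secreted ligands in the wild-type and 45.7% in the knockout library, while that sum was 62.8 and 55.8 FPKM. The other genes of its subfamily, Fgf3, Fgf7 and Fgf22, measured at most 0.28 FPKM.

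The FGF8 subfamily, whose ligands pattern brain and face, came next, with 35.3% and 35.2% of the summed FPKM of secreted ligands. Fgf8 (ENSMUSG00000025219, chromosome 19, 45736798 to 45742915, minus strand) measured 6.54 FPKM (5.61 to 7.58) in the wild-type and 4.57 FPKM (3.80 to 5.44) in the knockout library, from 177 and 124 fragments. Its level was 1.43-fold lower (1.13 to 1.82) in the knockout library, and 6.51% of the 14000 genes had a log2 ratio as low as its -0.47. Fgf17, a close relative of Fgf8, measured 11.55 FPKM (10.4 to 12.8) and 10.33 FPKM (9.28 to 11.5), with overlapping intervals and a ratio of 0.894 (0.772 to 1.04). Fgf18, an infundibular ligand that also acts on growing cartilage, measured 4.08 FPKM (3.31 to 4.97) and 4.73 FPKM (3.90 to 5.69), with a higher value in the knockout library and a ratio of 1.16 (0.877 to 1.54).

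Of the infundibular ligands, Fgf8 and Fgf10 were thus lower in the knockout library beyond counting error, and the interval for Fgf18 holds 1. The infundibulum markers summed to 173 and 179 FPKM. Of these 11, 0 were lower by 1.5-fold or more and 2 higher by that much, beside 4.56% and 2.06% of all genes. The 2 were Bmp4, the signal that acts on the pouch together with FGFs, at 6.50 and 10.53 FPKM, and Vax1, at 0.67 and 1.96 FPKM, both named after their values were seen. Beyond counting error, 2 of the 11 were lower, Tbx2 at 16.98 and 12.45 FPKM and Tbx3 at 22.36 and 20.14 FPKM. By the same measure 4 were higher, Bmp4, Vax1, Six3 at 35.94 and 42.46 FPKM and Wnt5a at 7.54 and 8.50 FPKM. All genes gave 22.3% lower and 17.7% higher. Over the 11 markers the median log2 ratio was -0.04, with 6 ratios below 0. The part of infundibular tissue in the ligand values was not tested.

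In the FGF9 subfamily, whose ligands pass between epithelium and mesenchyme, Fgf16 had the lowest ratio. Fgf16 (ENSMUSG00000031230, chromosome X, 105764279 to 105774939, plus strand) measured 6.46 FPKM (5.62 to 7.39) in the wild-type and 4.65 FPKM (3.95 to 5.45) in the knockout library, 1.39-fold lower (1.12 to 1.72). Fgf9 measured 2.12 FPKM (1.84 to 2.44) and 2.49 FPKM (2.18 to 2.83), and the interval of its ratio of 1.17 (0.966 to 1.42) holds 1. Fgf20 measured 1.87 FPKM (1.44 to 2.40) and 1.63 FPKM (1.23 to 2.12), and its ratio was 0.872 (0.595 to 1.27). Both genes thus had overlapping intervals, with the higher value in the knockout library for Fgf9 and in the wild-type library for Fgf20. Exons of Fgf20 share 12.0% of their bases with Micu3 on the other strand, and whether the counting used strand is not stated. Micu3 measured 1.72 and 1.52 FPKM.

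**Figure D2:**
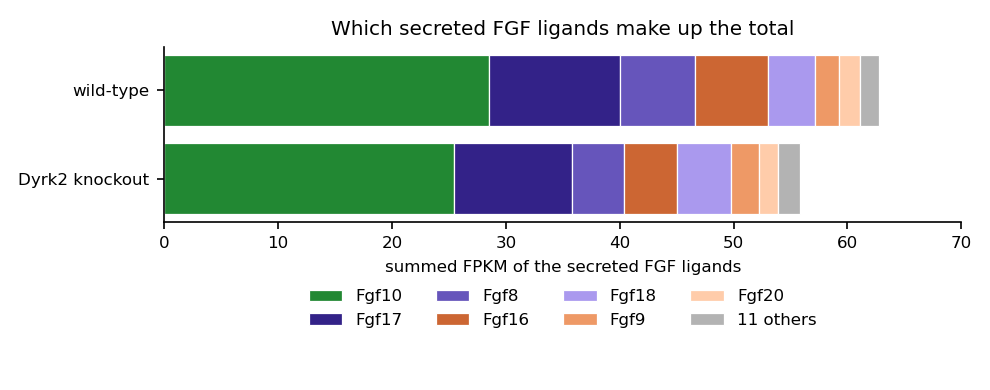
Summed FPKM of the 18 secreted FGF ligands in each library, split by ligand, on an axis that starts at 0. The sum is 62.8 FPKM for the wild-type and 55.8 FPKM for the knockout library, and Fgf10 fills 45.4% and 45.7% of it.

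The intracellular FGFs, Fgf11 to Fgf14, included Fgf13, which had the lowest ratio of the 25 members above the filter. These proteins are not secreted and are best known for binding voltage-gated sodium channels in excitable cells. Fgf13 (ENSMUSG00000031137, chromosome X, 59062145 to 59568071, minus strand) measured 11.23 FPKM (10.5 to 12.0) in the wild-type and 7.26 FPKM (6.69 to 7.87) in the knockout library, from 905 and 587 fragments. Its level was 1.55-fold lower (1.39 to 1.72) in the knockout library, and 4.45% of all genes had a log2 ratio as low as its -0.60. Of the 25 members above the filter it is the 1 past 1.5-fold with 0.5 FPKM added, and it lies at the threshold: the log2 ratio was -0.58 with the trimmed-mean scaling, -0.58 with the upper-quartile scaling and -0.51 with 2 FPKM added, and each of these leaves 0 of the 25 past 1.5-fold.

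Of the other intracellular FGFs, Fgf12 and Fgf14 were lower in the knockout library beyond counting error and Fgf11 was not. Fgf14 measured 1.24 FPKM (1.01 to 1.503) and 0.84 FPKM (0.659 to 1.06), 1.48-fold lower (1.08 to 2.02) in the knockout library. Fgf12, which stayed under the filter, measured 0.84 FPKM (0.683 to 1.01) and 0.54 FPKM (0.416 to 0.682), 1.56-fold lower (1.14 to 2.15). Fgf11 measured 8.0 FPKM (7.30 to 8.74) and 7.53 FPKM (6.86 to 8.25), and the interval of its ratio of 0.941 (0.827 to 1.07) holds 1. The group summed to 21.3 and 16.2 FPKM; Fgf13 gave 52.7% of the sum in the wild-type and 44.9% in the knockout library, where the intervals of Fgf11 and Fgf13 overlap. Neuronal markers did not move one way. Of 6, Tubb3, Stmn2, Elavl3 and Dcx were higher and Nefl and Nefm lower in the knockout library beyond counting error. By that measure, 17.7% of all genes were higher and 22.3% lower. Nefm alone was at least 1.5-fold lower, beside 4.56% of all genes. The part of neuronal cells in the values of Fgf12, Fgf13 and Fgf14 was not tested.

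Fgf13 and Fgf16 are both X-linked, and transcripts that mark sex differed between the libraries. Xist, expressed from the silenced X chromosome in females, was at 74.98 and 14.76 FPKM and the Y-linked Ddx3y at 5.83 and 14.95 FPKM. For 520 X-linked genes that passed the filter, the median of the log2 ratio was -0.01, and 25 were lower and 19 higher by 1.5-fold or more. Over all 14000 genes, 638 (4.56%) were that much lower and 289 (2.06%) that much higher. Gpc3, Hs6st2 and Dusp9, described below, are also X-linked. The part of sex in the values of Fgf13, Fgf16 and these genes was not tested.

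A total of 12 ligands did not reach 1 FPKM in either library, of which Fgf12 is described above. Fgf4 and Fgf21 were listed at 0 in both, where 3 fragments would equal 0.047 FPKM for Fgf4 and 0.157 FPKM for Fgf21 in the wild-type library. Fgf6, Fgf22 and Fgf23 had 1 to 4 fragments in each library. Fgf5 had 5 and 9 fragments, Fgf7 had 2 and 7 fragments and Fgf3 had 8 and 13 fragments, and the ratio intervals of all 3 hold 1. Fgf15, a ligand of the developing brain and later the gut, measured 0.52 and 0.70 FPKM, and 24.9% of its exon bases lie opposite those of Gm26793.

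Fgf1 and Fgf2, which act broadly and lack a classical signal peptide, differed in opposite directions at low levels. Fgf1 had 64 and 27 fragments, 0.58 FPKM (0.450 to 0.746) and 0.25 FPKM (0.162 to 0.357), and was 2.32-fold lower (1.495 to 3.88) in the knockout library. Fgf2 had 23 and 40 fragments, 0.17 FPKM (0.107 to 0.254) and 0.29 FPKM (0.209 to 0.399), and was 1.71-fold higher (1.01 to 3.03), with a limit close to 1. Exons of Fgf2 share 9.44% of their bases with Nudt6 on the other strand. Nudt6 measured 2.68 and 1.96 FPKM, above Fgf2 in both libraries, and its part in the values of Fgf2 was not tested.

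The 3 receptor genes above the filter had log2 ratios between 0.02 and 0.13. Fgfr1 (ENSMUSG00000031565, chromosome 8, 25513654 to 25575718, plus strand), a receptor of mesenchyme and neural tissue, measured 25.57 FPKM (24.9 to 26.3) in the wild-type and 25.89 FPKM (25.2 to 26.6) in the knockout library. From 5061 and 5143 fragments, its ratio was 1.01 (0.974 to 1.053). Fgfr2, whose epithelial form carries the FGF10 signal into the pouch, measured 12.76 FPKM (12.28 to 13.3) and 14.03 FPKM (13.5 to 14.5), 1.10-fold higher (1.04 to 1.16) in the knockout library. The tables do not separate its epithelial from its mesenchymal splice form, and 3.04% of its exon bases are shared with Ctbp2 on the same strand. Fgfrl1, a receptor without a kinase domain, measured 21.86 FPKM (20.6 to 23.1) and 22.53 FPKM (21.3 to 23.8), with overlapping intervals.

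Most receptor transcripts were of Fgfr1, with 65.7% of the summed FPKM of Fgfr1 to Fgfr4 in the wild-type and 63.4% in the knockout library, and Fgfr2 gave 32.8% and 34.3%. Fgfr3, a receptor of neural progenitors and cartilage, was under the filter at 0.54 FPKM (0.424 to 0.671) and 0.79 FPKM (0.653 to 0.951), 1.46-fold higher (1.10 to 1.996). Fgfr4 measured 0.07 and 0.14 FPKM from 5 and 10 fragments. Klb, the co-receptor of the hormone-like ligands Fgf15 and Fgf21, had 3 and 1 fragments.

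**Figure D3:**
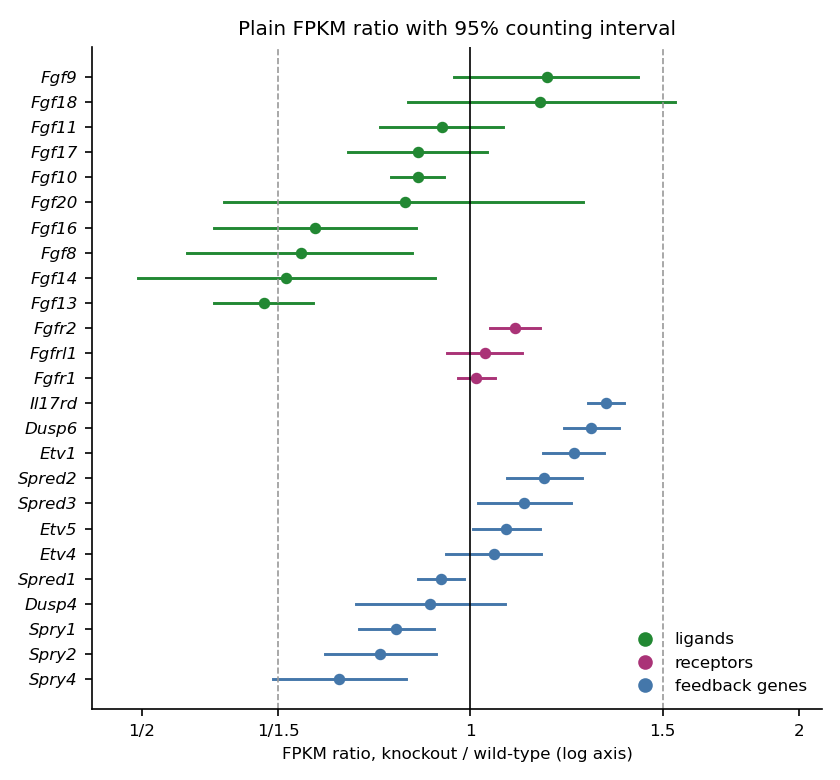
Plain FPKM ratio, knockout over wild-type, of the 25 members above 1 FPKM, with 95% counting intervals, on a log axis. Dashed lines mark 1.5-fold. Fgf13 has the lowest ratio of the 25, the Sprouty genes lie below 1, and Il17rd and Dusp6 lie above 1.

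All 12 matched feedback genes passed the filter, and their ratios went both ways. The 3 Sprouty genes were lower in the knockout library, while Il17rd, Dusp6 and Etv1 were higher, each beyond counting error. None of the 12 differed by 1.5-fold, and log2 ratios ran between -0.36 and 0.41 around a median of 0.09. The interval of the ratio lay wholly below 1 for 4 of the 12 and wholly above 1 for 6, where all genes gave 22.3% and 17.7%.

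ETS factors are among the proteins that carry the ERK signal to promoters, so the sequence before the start of 2 higher genes, Dusp6 and Il17rd, and 2 lower genes, Spry1 and Spry2, is shown here. The 4 were picked once their values were known. Overlapping stretches of the ETS consensus were searched on both strands in the 250 bases before each RefSeq start (GRCm38.p6). The first word was CCGGAA, found before 12.0% of all RefSeq starts. The second, moved along by a base, was CGGAAG, found before 13.6% of them. The last word searched was GGAAGT, found before 19.7%. The windows are chr10:99262981-99263230 on the plus strand for Dusp6, chr14:27038751-27038940 on the plus strand for Il17rd, chr3:37639697-37639946 on the plus strand for Spry1 and chr14:105896820-105897069 on the minus strand for Spry2. Each reads 5′ to 3′ on the gene's strand and ends at the base before the first base that GENCODE gives the gene, with a matching word in capitals. For Il17rd that base lies before the RefSeq start, so 190 of the 250 bases searched are printed.
Dusp6: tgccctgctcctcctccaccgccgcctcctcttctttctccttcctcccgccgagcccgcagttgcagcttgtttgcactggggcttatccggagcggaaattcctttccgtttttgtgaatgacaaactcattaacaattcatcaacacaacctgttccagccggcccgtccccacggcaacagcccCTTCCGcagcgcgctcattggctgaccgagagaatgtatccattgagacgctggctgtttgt
Il17rd: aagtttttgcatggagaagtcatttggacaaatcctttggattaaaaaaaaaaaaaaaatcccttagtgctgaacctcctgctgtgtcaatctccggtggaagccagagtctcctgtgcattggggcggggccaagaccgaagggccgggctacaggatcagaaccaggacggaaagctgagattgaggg
Spry1: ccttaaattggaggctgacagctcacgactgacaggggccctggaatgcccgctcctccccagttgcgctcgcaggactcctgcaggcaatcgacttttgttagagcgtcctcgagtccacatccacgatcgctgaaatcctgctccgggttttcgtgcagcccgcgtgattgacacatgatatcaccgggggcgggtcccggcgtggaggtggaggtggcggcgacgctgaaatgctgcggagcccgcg
Spry2: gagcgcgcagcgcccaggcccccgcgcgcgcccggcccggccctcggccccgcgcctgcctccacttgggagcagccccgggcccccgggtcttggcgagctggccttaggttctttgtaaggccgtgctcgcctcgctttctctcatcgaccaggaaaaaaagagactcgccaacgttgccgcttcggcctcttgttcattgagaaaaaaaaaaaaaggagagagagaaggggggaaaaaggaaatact
Dusp6 held 1 word, CGGAAG read on the other strand, with its first base 62 bases before the start, and the other 3 genes held 0. Among all RefSeq starts in the table, 31.0% of 32851 held at least 1 word, and among the 11 starts of feedback genes 4 did, in Dusp6, Etv5, Spred1 and Spred2. Etv5 has a further start with 0 words. A match describes letters in this window and is not a binding site.

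The Sprouty proteins block the pathway between receptor and Raf. Spry1 (ENSMUSG00000037211, chromosome 3, 37639947 to 37644598, plus strand) measured 22.92 FPKM (21.7 to 24.2) in the wild-type and 19.60 FPKM (18.5 to 20.8) in the knockout library, 1.17-fold lower (1.08 to 1.27). Spry2 (ENSMUSG00000022114, chromosome 14, 105891947 to 105896819, minus strand) measured 15.30 FPKM (14.1 to 16.5) in the wild-type and 12.65 FPKM (11.6 to 13.8) in the knockout library, 1.21-fold lower (1.08 to 1.36). Spry4 measured 4.92 FPKM (4.49 to 5.39) and 3.73 FPKM (3.36 to 4.14), 1.32-fold lower (1.15 to 1.52). All 3 were lower in the knockout library with intervals that do not overlap, and together they summed to 43.1 and 36.0 FPKM. Of the exon bases of Spry1, 24.4% lie opposite those of Gm42922, which measured 0.17 and 0.45 FPKM.

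The higher genes were led by Il17rd and Dusp6. Il17rd (ENSMUSG00000040717, chromosome 14, 27038941 to 27107286, plus strand), also known as Sef, encodes a membrane protein that holds back FGF signals. It measured 21.60 FPKM (20.99 to 22.2) in the wild-type and 28.77 FPKM (28.1 to 29.5) in the knockout library, 1.33-fold higher (1.28 to 1.38), and 3.70% of all genes had a log2 ratio as high. Dusp6 (ENSMUSG00000019960, chromosome 10, 99263231 to 99267489, plus strand), the phosphatase that inactivates ERK in the cytoplasm, measured 32.91 FPKM (31.5 to 34.4) in the wild-type and 42.49 FPKM (40.9 to 44.1) in the knockout library, 1.29-fold higher (1.22 to 1.37), and 4.47% of all genes had a ratio as high. Dusp4, a phosphatase that acts in the nucleus, measured 6.12 FPKM (5.48 to 6.81) and 5.62 FPKM (5.02 to 6.29), and the interval of its ratio of 0.918 (0.785 to 1.08) holds 1.

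The ETS factors ranged from higher to level. Etv1 measured 6.36 FPKM (6.06 to 6.67) and 7.91 FPKM (7.58 to 8.26), 1.24-fold higher (1.17 to 1.33) in the knockout library. Etv5 measured 18.62 FPKM (17.7 to 19.6) and 20.09 FPKM (19.1 to 21.1), 1.08-fold higher (1.01 to 1.16), with a lower limit close to 1. Etv4 measured 12.34 FPKM (11.5 to 13.2) and 12.96 FPKM (12.1 to 13.9), and the intervals of the libraries overlap. Their sum was 37.3 and 41.0 FPKM.

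The Spred genes, relatives of Sprouty that act through the Ras inhibitor neurofibromin, went both ways. Spred2 measured 12.53 FPKM (11.8 to 13.3) and 14.64 FPKM (13.9 to 15.4), 1.17-fold higher (1.08 to 1.26). Spred3 measured 6.25 FPKM (5.82 to 6.70) and 7.0 FPKM (6.55 to 7.48), 1.12-fold higher (1.02 to 1.24). Spred1 measured 24.25 FPKM (23.4 to 25.1) and 22.79 FPKM (22.0 to 23.6), 1.06-fold lower (1.01 to 1.12). With 2 higher and 1 lower, their sum was 43.0 and 44.4 FPKM.

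**Figure D4:**
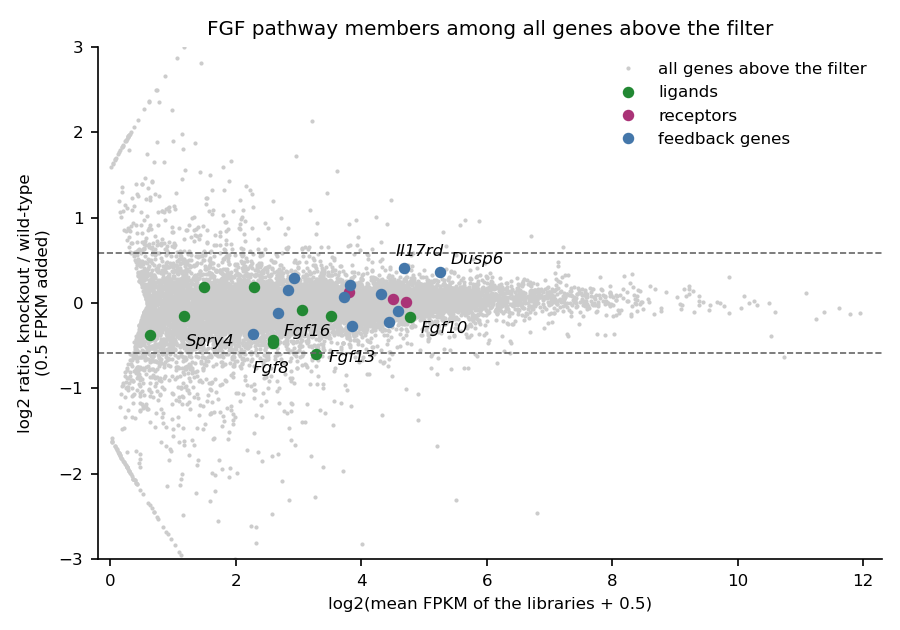
Log2 ratio, knockout over wild-type with 0.5 FPKM added, against log2 of the mean FPKM plus 0.5, for all 14000 genes above the filter (grey) and the 25 members (coloured by role), with dashed lines at 1.5-fold. Most members lie inside the dense band, with Fgf13 at the lower dashed line, and 8 genes beyond a log2 ratio of 3 in size are not drawn.

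Other genes of the pathway mostly differed by less than 1.5-fold. So did most of all genes above the filter, where 4.56% were at least 1.5-fold lower and 2.06% that much higher. Of 23 genes for heparan sulfate, FGF-binding proteins and partners at the cell surface, 21 passed the filter. Among these 21, 0 were 1.5-fold lower or higher, and the median log2 ratio was 0.06. The interval of the ratio lay wholly below 1 for 7 of the 21 and wholly above 1 for 8. All genes gave 22.3% and 17.7%. The most expressed was Gpc3, a glypican, at 266.69 FPKM (262 to 271) and 206.44 FPKM (203 to 210), 1.29-fold lower (1.26 to 1.32) in the knockout library. Hs6st2, which adds sulfate to heparan chains and was named after its values were seen, measured 4.86 and 7.52 FPKM, 1.55-fold higher (1.41 to 1.70) as a plain ratio. Its log2 ratio with 0.5 FPKM added was 0.58, just inside the threshold, and its call under the other pseudocounts and scalings was not examined.

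All 20 genes from the receptor's adaptors to ERK passed the filter, and 19 differed by less than 1.5-fold, with a median log2 ratio of -0.01. The exception was Gab1, an adaptor that recruits the phosphatase Ptpn11, at 26.55 FPKM (25.6 to 27.6) and 17.45 FPKM (16.7 to 18.3), 1.52-fold lower (1.43 to 1.62) in the knockout library. With 0.5 FPKM added its log2 ratio was -0.59, closer to the threshold than the -0.60 of Fgf13. Its call under the other pseudocounts and scalings was not examined. The most expressed, Nras, measured 42.35 and 42.14 FPKM. The interval of the ratio lay wholly below 1 for 5 of the 20 and wholly above 1 for 5, beside 22.3% and 17.7% of all genes. Among all genes, 4.56% were at least 1.5-fold lower and 2.06% that much higher. Of 16 immediate early genes, which respond quickly to ERK and other signals, 11 passed the filter and 0 of these were past 1.5-fold, with a median log2 ratio of -0.03. Mcl1, the most expressed, measured 64.66 and 64.14 FPKM.

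Markers of tissues that make or receive FGFs were also summed. Over all genes above the filter, 4.56% were at least 1.5-fold lower and 2.06% that much higher. Mesenchyme markers summed to 230 and 130 FPKM, with 6 of 11 at least 1.5-fold lower, 1 that much higher and Tcf21 at 0 in the knockout library. Pouch markers summed to 822 and 716 FPKM, with 2 of 10 at least 1.5-fold lower. Endothelial markers summed to 69.1 and 77.9 FPKM and erythroid markers to 2089 and 1608 FPKM, with 0 past 1.5-fold in either list. The mesenchyme list thus had the most members past 1.5-fold among these lists. Beyond counting error, 9 of the 11 mesenchyme markers were lower and 1 higher, and 6 of the 10 pouch markers lower and 1 higher. By that measure 0 of 6 endothelial markers were lower and 4 higher. Erythroid markers had 4 above the filter, of which 4 were lower. All genes gave 22.3% lower and 17.7% higher.

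Oral epithelium markers had 3 of 6 above the filter, 1 lower and 1 higher by 1.5-fold. They summed to 7.0 and 6.97 FPKM, although the single genes differed in opposite directions. Tbx1 measured 3.60 and 0.98 FPKM, Krt15 0.28 and 1.55 FPKM and Pax9 2.04 and 2.92 FPKM, each beyond counting error. Under the filter, Trp63 had 3 and 54 fragments, and the ratio intervals of Krt5 and Krt14 hold 1. Cartilage markers had 3 of 4 above the filter, 1 of them lower by 1.5-fold, and summed to 155 and 131 FPKM, and muscle markers had 0 of 4, with Myf5 at 0 in both libraries. The part of these tissues in the ligand and feedback values was not tested.

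**Figure D5:**
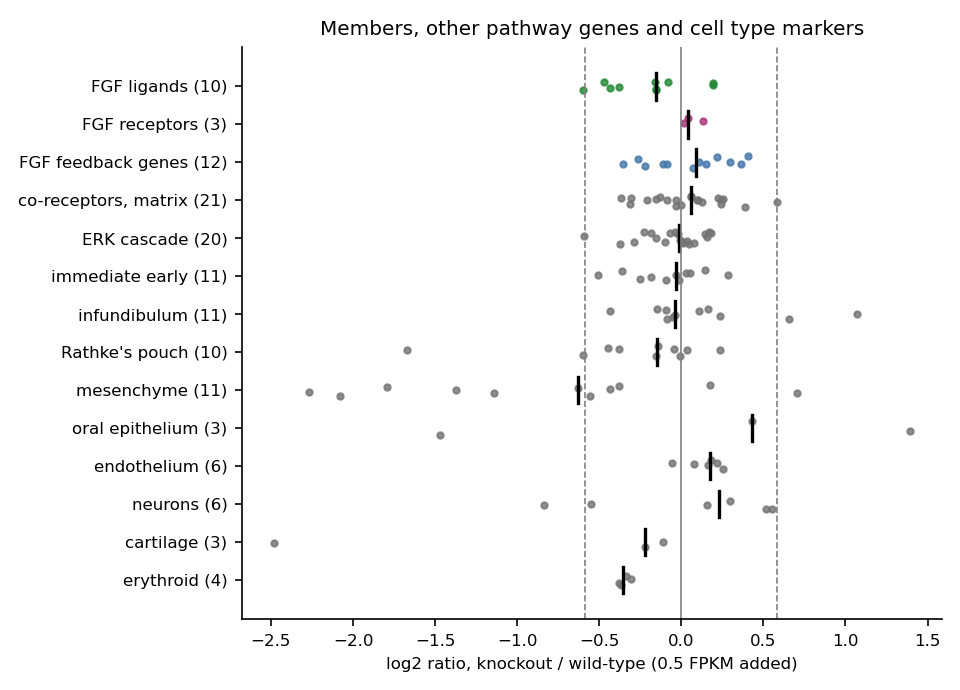
Log2 ratio, knockout over wild-type with 0.5 FPKM added, of each gene above the filter (points, number in brackets) with the list's median (black bar) and dashed lines at 1.5-fold. Ligands, receptor genes and feedback genes have medians of -0.16, 0.04 and 0.09, and mesenchyme markers a median of -0.63. The ligands include 3 intracellular FGFs, and the 7 secreted ligands alone have a median of -0.15.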

How the data were processed

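Per the labels' protocols, total RNA was treated with DNase and made into stranded libraries after polyA selection, 1 per genotype, and the genotype label gave the groups. The authors deposited FPKM per Ensembl gene with the gene's length, per the file headers. The submitters' processing notes name cutadapt 1.9.1, HISAT2 2.0.1 and GRCm38. The sources used here state neither the counting tool, nor its use of strand, nor the annotation release.

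FPKM were used as deposited, without rescaling. Fragment numbers were recovered from the FPKM steps: all 1512 wild-type and 1372 knockout values checked were whole within 0.1 fragment. The check covered short genes only, where rounding of the FPKM is worth less than 0.05 fragment. All matched members are longer than these, and for the longest, such as Fgf2, rounding makes the recovered numbers approximate. No count test was run, since each genotype has 1 library. Symbols and coordinates came from GENCODE M21 (55141 of 55401 genes matched). Where either library reached 1 FPKM, genes were compared by the log2 ratio after adding 0.5 FPKM, which understates the change of weak genes; folds in the text are plain ratios. Intervals used scipy 1.17.1. The steps were tested on simulated data. Alternatives were other pseudocounts, filters and scalings. Members above the filter are given with values, and of 3 further pathway lists the most expressed gene and up to 3 past 1.5-fold. Members and lists were chosen with earlier results of these data known. Promoter sequences are from RefSeq (GRCm38.p6), with a start for 30 of the 40 matched members.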

Additional observations from a re-analysis of the deposited data

How the results depend on the processing

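Pseudocounts of 0.1 and 2 FPKM, a filter of 5 FPKM, no filter and 3 scalings of the knockout library, by factors from 0.999 to 1.02, were run as planned, and plain ratios without a pseudocount were added after seeing the data. The count of 1 member at least 1.5-fold lower became 0 with a pseudocount of 2 FPKM, with the trimmed mean and with upper quartiles, since Fgf13 lies at the threshold, and the other settings left it at 1. The count of members at least 1.5-fold higher was 0 under all settings run. The median log2 ratio of the members ranged from -0.09 to -0.03, except without a filter, where it was 0.03 over 40 members. None of the members changed sign under any of these settings. No paired analysis was possible because each genotype has a single library. Depth limits the less abundant ligands most: from 97 and 113 fragments, the ratio of Fgf18 has an interval from 0.877 to 1.54.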

Other observations

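The relatives of Dusp6 and Dusp4 were examined after the values of those genes were seen, taking all 22 further Dusp symbols. Of these, 18 passed the filter, with a median log2 ratio of -0.06. In the knockout library 1 was at least 1.5-fold lower and 0 were that much higher, beside 4.56% and 2.06% of all genes. The interval of the ratio lay wholly below 1 for 5 of the 18 and wholly above 1 for 3, where all genes gave 22.3% and 17.7%. Dusp7 and Dusp9, cytoplasmic ERK phosphatases like Dusp6, were among the 3 above 1. Dusp7 was at 16.72 FPKM (15.8 to 17.7) and 20.49 FPKM (19.4 to 21.6), 1.23-fold higher (1.13 to 1.33), and Dusp9 at 8.49 FPKM (7.73 to 9.30) and 11.16 FPKM (10.3 to 12.1), 1.31-fold higher (1.16 to 1.49). The nuclear phosphatases Dusp2 and Dusp5 were at 0.75 and 1.02 FPKM and at 6.25 and 6.96 FPKM, and their ratio intervals hold 1, as does that of Dusp4. Dusp1 was at 4.61 and 4.79 FPKM, and the interval of its ratio also holds 1. Dusp26 had the lowest ratio of the 18, at 3.01 and 1.38 FPKM, 2.18-fold lower (1.61 to 2.98), and Dusp14 the highest, at 3.13 and 4.52 FPKM, 1.44-fold higher (1.14 to 1.84).

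Of the 11 immediate early genes above the filter, the interval of the ratio lay wholly below 1 for 3 and wholly above 1 for 0. All genes gave 22.3% and 17.7%. Those named here were also picked after their values were seen. The 3 were Egr1 at 1.86 and 1.34 FPKM, 1.39-fold lower (1.09 to 1.76), Jun at 19.68 and 16.43 FPKM and Ier2 at 44.58 and 39.11 FPKM. Under the filter, Egr3 was at 0.25 and 0.03 FPKM from 22 and 3 fragments, and Fos at 0.21 and 0.59 FPKM from 10 and 28 fragments, in opposite directions.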
